A study of Mus musculus with 7 samples.

Results

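Cilium genes were examined in mouse lung by RNA sequencing. The genes were chosen by symbol, as all symbols starting with Dnah, Dnaic, Tekt, Rsph, Ift or Bbs followed by a digit, together with Dnali1 and Foxj1. The rule gave 46 of the 22447 genes listed. Of these, 25 belong to the motile cilium (10 Dnah, 2 Dnaic, 5 Tekt and 6 Rsph genes, Dnali1 and Foxj1) and 21 to ciliary transport (13 Ift and 8 Bbs genes). The study set 3 tumors from the lungs of EZH2-overexpressing animals (OE tumors) against 2 samples of lung labelled normal with the same overexpression (OE normal lung) and 2 samples of wild-type lung (WT lung). Both OE groups carry the EZH2 overexpression. The sources used here give no age, no strain and no promoter for the overexpressed EZH2. The labels name lung tissue as the source and also speak of culturing minced tumor nodules, so it is not stated whether the tumor RNA came from tissue or from culture. Separate animals are not stated for the replicates either, and the p-values therefore measure the spread among these samples, which may be partly technical.

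A motile cilium is a hair-like cell projection built on a microtubule core, the axoneme, and it beats because dynein motors make neighbouring microtubules slide. In the lung, motile cilia are carried by the multiciliated cells of the airways, where they move mucus. Transport along any cilium, the single non-motile primary cilium of most cell types included, depends on intraflagellar transport (IFT) trains, made of the IFT-A and IFT-B complexes, and on the BBSome, a coat that carries membrane proteins. Motile cilium genes are thus genes of few lung cells, and transport genes are used by many cell types.

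The levels are FPKM, a read density per transcript length and library size, so levels of different genes can be compared. Differences are on the log2(FPKM + 1) scale with their standard error (SE) from limma, a scale on which changes of low genes look smaller than they are. A gene is called at an adjusted p under 0.05 over all 14057 genes tested, those reaching 1 FPKM in 2 or more of the 7 libraries. All 21 transport genes and 21 of the 25 motile cilium genes passed this filter. The other 4 motile cilium genes (Dnah8, Dnah17, Tekt3 and Rsph6a) were too low to be tested. FPKM summed to between 405166 and 503550 per library, and the relative read depth, read from the spacing of low values, ranged from 1 (tumor 1, by definition) to 1.86 (OE normal 2). The lung surfactant gene Sftpb was at 2664 to 6954 FPKM in the OE tumors, against 749 to 1325 FPKM in OE normal and 1096 to 1386 FPKM in WT lungs. Ezh2 had 8.48, 23.5 and 22.6 FPKM in the 3 OE tumors, against 10.2 and 11.5 FPKM in OE normal and 3.72 and 2.58 FPKM in WT lungs. It was called higher in OE tumors than in WT lung (log2 difference 2.10, SE 0.43, adjusted p = 0.0118 by limma, lost without WT 1 or WT 2), while OE normal against WT lung was 1.53 (SE 0.47, adjusted p = 0.406). Tumor 1 stood apart from the other 2 tumors, with r = 0.897 and 0.894 to them across genes, against 0.970 between tumors 2 and 3. Sex-linked genes placed tumor 1, OE normal 1 and both WT lungs as male and tumors 2 and 3 and OE normal 2 as female.

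Promoter sequences introduce the genes. They are shown because ciliary genes share a known regulator family, the RFX transcription factors, whose X-box contains the half-site GTTGCC, which reads GGCAAC when taken from the other strand. RefSeq promoters (build GRCm38.p6, 250 bases before to 50 bases after each start) were found for 40 of the 46 genes, 22 motile cilium and 18 transport genes. A half-site on either strand lay in the promoters of 7 of 22 motile cilium genes (31.8%) and 8 of 18 transport genes (44.4%), against 14.1% of the 27025 genes in the table. The forkhead motif GTAAACA, which reads TGTTTAC when taken from the other strand and is of the kind bound by FOXJ1, lay in the promoters of 2 of 22 motile cilium genes (9.09%, Dnah17 and Tekt3) and 0 of 18 transport genes, against 4.05% of all genes. Neither motif contains the other, the matches describe only the letters of these windows, and no factor binding was measured. The 5 promoters below were picked after the motif search from genes called lower in OE tumors against both normal groups. Each is given 5′ to 3′ on the gene's strand with half-sites in capitals, and positions are those of a half-site's first base, with 1 the first base of the gene. Dnaic2 (chr11:114727169-114727468, plus strand) has a half-site at -26, Dnah10 (chr5:124724835-124725134, plus strand) at -20 and 11, and Tekt1 (chr11:72361833-72362132, minus strand) at -35 and -15. The table holds another Tekt1 window (chr11:72361247-72361546) with 0 half-sites. Ift172 (chr5:31291065-31291364, minus strand) has a half-site at 1 and Bbs7 (chr3:36613340-36613639, minus strand) at -121.
Dnaic2: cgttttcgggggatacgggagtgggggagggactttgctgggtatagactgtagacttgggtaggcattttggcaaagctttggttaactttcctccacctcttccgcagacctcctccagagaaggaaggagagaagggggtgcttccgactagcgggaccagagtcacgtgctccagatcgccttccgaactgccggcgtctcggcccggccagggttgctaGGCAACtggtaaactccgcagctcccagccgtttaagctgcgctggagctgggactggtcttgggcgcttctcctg
Dnah10: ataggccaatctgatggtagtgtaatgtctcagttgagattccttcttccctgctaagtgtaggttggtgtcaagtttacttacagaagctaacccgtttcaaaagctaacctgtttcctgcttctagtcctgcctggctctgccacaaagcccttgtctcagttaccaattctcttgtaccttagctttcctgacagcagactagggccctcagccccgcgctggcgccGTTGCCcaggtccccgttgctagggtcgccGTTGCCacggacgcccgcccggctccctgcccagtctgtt
Tekt1: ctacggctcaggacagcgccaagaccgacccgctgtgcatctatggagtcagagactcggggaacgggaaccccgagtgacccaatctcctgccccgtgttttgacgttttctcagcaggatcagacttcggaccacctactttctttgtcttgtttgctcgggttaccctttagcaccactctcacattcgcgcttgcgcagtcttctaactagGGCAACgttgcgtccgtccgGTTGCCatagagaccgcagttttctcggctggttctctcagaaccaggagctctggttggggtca
Ift172: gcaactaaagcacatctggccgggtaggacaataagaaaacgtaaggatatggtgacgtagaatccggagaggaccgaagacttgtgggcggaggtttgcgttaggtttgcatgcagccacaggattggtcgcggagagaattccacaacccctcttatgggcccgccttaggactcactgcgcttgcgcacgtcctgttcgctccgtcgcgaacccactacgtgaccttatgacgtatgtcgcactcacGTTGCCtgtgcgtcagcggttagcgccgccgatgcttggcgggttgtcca
Bbs7: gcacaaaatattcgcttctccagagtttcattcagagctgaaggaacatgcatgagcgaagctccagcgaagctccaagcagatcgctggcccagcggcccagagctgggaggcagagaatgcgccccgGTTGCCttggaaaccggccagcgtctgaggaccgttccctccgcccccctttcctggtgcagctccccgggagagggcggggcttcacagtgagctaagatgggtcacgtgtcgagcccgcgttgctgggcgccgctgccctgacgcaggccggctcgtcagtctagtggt

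In OE tumors most motile cilium genes were near 0, while the transport genes kept most of their level. Against OE normal lung, 18 of the 25 motile cilium genes were called lower and 0 higher, at mean levels of 1.22% (Tekt4) to 27.9% (Rsph9) of the OE normal mean. Of all genes tested, 24.9% were called lower and 13.1% higher in this comparison. Most of the motile cilium genes called passed the filter through the normal lungs, as 5, 3 and 3 reached 1 FPKM in the 3 OE tumors. A gene that passes in this way can be called lower but hardly higher. The counts of motile cilium genes called are therefore a description, against WT lung as well. Of the 21 transport genes, 9 were called lower, at 35.7% (Bbs7) to 67.3% (Bbs1) of the OE normal mean, and 1 was called higher (Ift20, at 163.5%). The median log2 difference was -2.06 over all 25 motile cilium genes and -0.43 over all 21 transport genes, against -0.11 over all genes tested. In these bulk samples fewer cells of a type and less RNA per cell cannot be told apart.

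Against WT lung, 19 motile cilium genes were called lower and 0 higher, where 23.2% of all genes tested were called lower and 15% higher. Of the transport genes, 9 were called lower and 2 higher (Ift20 and Bbs12). The median log2 difference was -1.85 for the motile cilium genes and -0.27 for the transport genes, against -0.064 over all genes tested. Both tumor comparisons use the same 3 tumor libraries, so they are not independent. The 3 tumors lay below both OE normal lungs for 21 motile cilium and 10 transport genes (35.9% of all genes tested did so), and below both WT lungs for 20 and 11 (35% of all genes tested). They lay above both OE normal lungs for 1 motile cilium gene, the untested Dnah17, and 3 transport genes (25% of all genes tested), and above both WT lungs for 1 and 3 (28.9%). These member counts include untested genes. Of all 22447 genes listed, 6925 lay below both OE normal lungs and 6544 below both WT lungs, and 3943 and 4572 lay above.

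**Figure D1:**
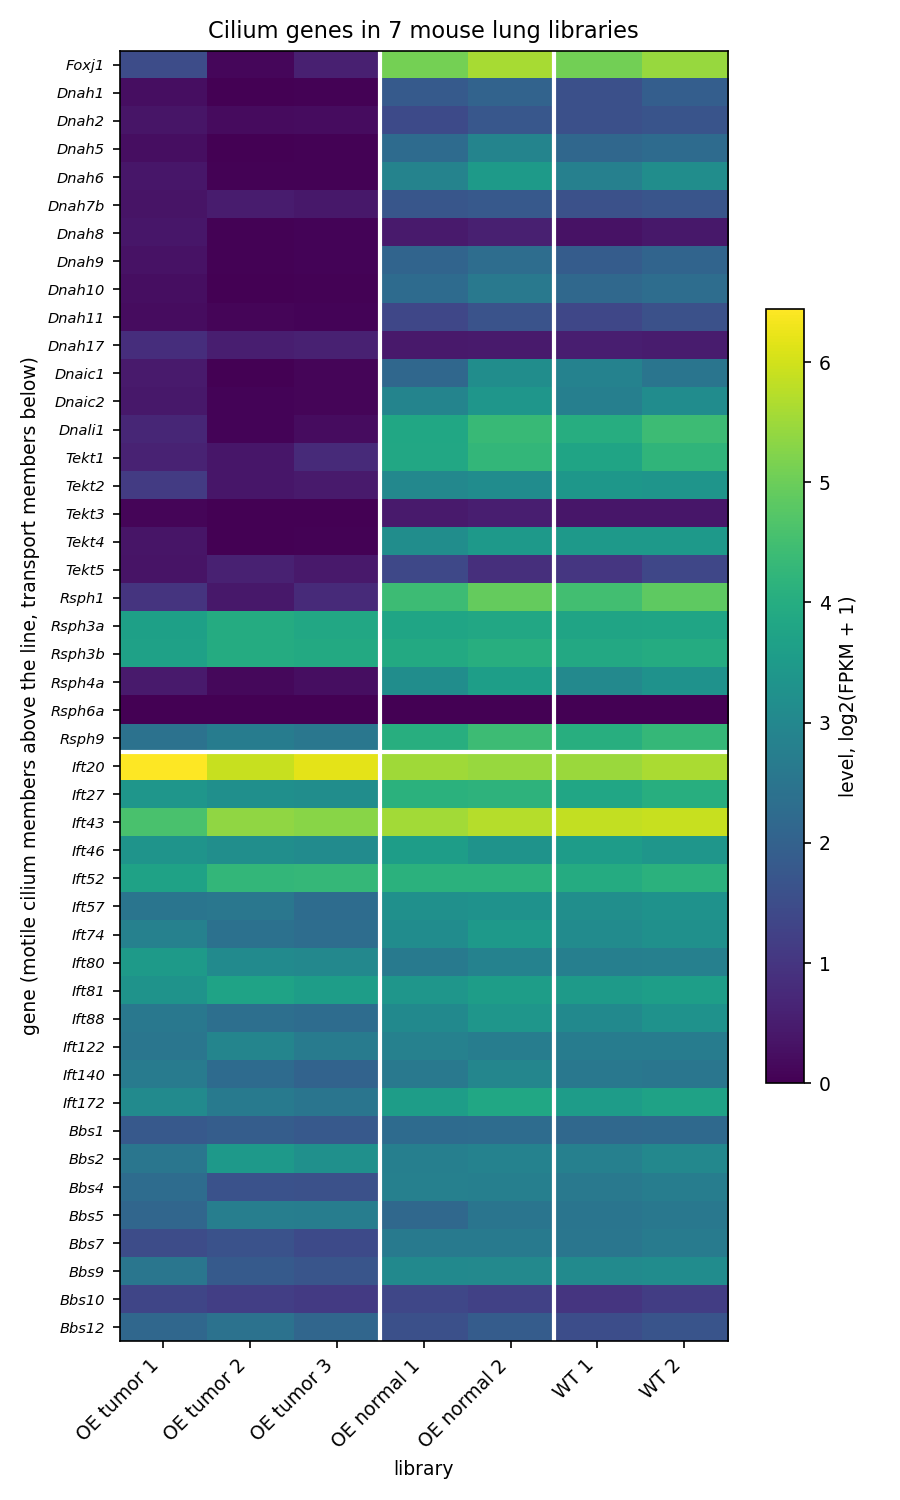
Level of each of the 46 genes, as log2(FPKM + 1), in the 3 OE tumors, 2 OE normal lungs and 2 WT lungs, with motile cilium genes above the horizontal line and transport genes below it. The motile cilium rows are dark in all 3 OE tumors except Rsph3a, Rsph3b and Rsph9, and the transport rows have similar shades across the 7 libraries, with Ift20 brightest in the OE tumors.

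Foxj1 encodes the forkhead transcription factor that switches on the motile cilium programme. It had 1.81, 0.0864 and 0.487 FPKM in the 3 OE tumors, against 33.5 and 47.7 FPKM in OE normal and 32.8 and 42.3 FPKM in WT lungs. All 3 tumors lay far below all 4 normal lungs, and tumor 1 was the highest of the tumors. The log2 difference was -4.63 (SE 0.41, adjusted p = 0.000619 by limma) against OE normal lung and -4.53 (SE 0.41, adjusted p = 0.000627) against WT lung.

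The outer dynein arms, which set the beat frequency, hold the heavy chains encoded by Dnah5, Dnah9 and Dnah11 and the intermediate chains encoded by Dnaic1 and Dnaic2. Dnaic2 had 0.342, 0.0385 and 0.0694 FPKM in the OE tumors, against 6.55 and 9.49 FPKM in OE normal and 5.82 and 7.81 FPKM in WT lungs. Dnaic1 had 0.373 and 0.0607 FPKM in OE tumors 1 and 3 and was listed at 0 in tumor 2, with 3.48 and 7.98 FPKM in OE normal and 6.25 and 4.68 FPKM in WT lungs. No tumor reached any normal lung for either gene, and the 2 OE normal lungs differed more from each other for Dnaic1 than for Dnaic2. Dnaic2 had log2 differences against OE normal and WT lung of -2.96 and -2.76 (SE 0.22 each, adjusted p = 0.00039 and 0.000432 by limma). Those of Dnaic1 were -2.48 and -2.50 (SE 0.32 each, adjusted p = 0.00225 and 0.00223).

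Dnah5 had 0.180 and 0.0317 FPKM in OE tumors 1 and 3 and was listed at 0 in tumor 2, against 3.72 and 6.53 FPKM in OE normal and 3.42 and 3.78 FPKM in WT lungs. Dnah9 had 0.242, 0.019 and 0.036 FPKM in the OE tumors, against 3.21 and 3.96 FPKM in OE normal and 2.67 and 3.21 FPKM in WT lungs. For both heavy chains the groups did not overlap, and tumor 1 was again the highest tumor. Against OE normal lung, Dnah5 fell by 2.48 on the log2 scale (SE 0.22, adjusted p = 0.000628 by limma) and Dnah9 by 2.06 (SE 0.16, adjusted p = 0.000439). Against WT lung the log2 differences were -2.10 for Dnah5 (adjusted p = 0.00108) and -1.85 for Dnah9 (adjusted p = 0.000568). An exact 0 in these tables can be a failed estimate rather than an absence of reads, since the abundant surfactant gene Sftpc was listed at 0 in tumors 2 and 3 and at 35944 FPKM in tumor 1.

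The inner dynein arms, which shape the bend, hold the heavy chains encoded by Dnah1, Dnah2, Dnah6, Dnah7b and Dnah10 and the light intermediate chain encoded by Dnali1. Dnali1 had 0.624, 0.0363 and 0.159 FPKM in the OE tumors, against 13.3 and 19.3 FPKM in OE normal and 15.1 and 20.4 FPKM in WT lungs. Dnah6, the heavy chain gene with the highest mean, had 0.304, 0.0262 and 0.0318 FPKM in the OE tumors, against 6.39 and 10.4 FPKM in OE normal and 5.94 and 7.93 FPKM in WT lungs. Dnah10 had 0.171, 0.00372 and 0.032 FPKM in the OE tumors, against 3.73 and 5.11 FPKM in OE normal and 3.53 and 3.91 FPKM in WT lungs. In each of these 3 genes every tumor lay below every normal lung, and tumor 1 was the highest tumor. Against OE normal and WT lung the log2 differences were -3.77 and -3.89 for Dnali1 (SE 0.27, adjusted p = 0.000353 and 0.000287 by limma), -3.04 and -2.82 for Dnah6 (SE 0.24, adjusted p = 0.000455 and 0.000532), and -2.33 and -2.14 for Dnah10 (SE 0.17, adjusted p = 0.000347 and 0.000394).

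All 8 Dnah genes tested were called lower in both tumor comparisons. Dnah1, Dnah2, Dnah7b and Dnah11 had log2 differences of -1.84, -1.34, -1.34 and -1.38 against OE normal lung, and none exceeded 0.409 FPKM in an OE tumor. Dnah8 and Dnah17, known as sperm dynein genes, stayed below 1 FPKM in all 7 libraries and were not tested. Dnah17 ran the other way from the rest of the family, with 0.78, 0.46 and 0.507 FPKM in the OE tumors, against 0.354 and 0.388 FPKM in OE normal and 0.447 and 0.413 FPKM in WT lungs. The median log2 difference over all 10 Dnah genes was -1.61 against OE normal lung and -1.52 against WT lung.

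Tektins are filament proteins that run inside the doublet microtubules. Tekt1 had 0.534, 0.311 and 0.707 FPKM in the OE tumors, against 13.6 and 18.3 FPKM in OE normal and 12.6 and 17.5 FPKM in WT lungs. Tekt4 had 0.286, 0.0128 and 0.0346 FPKM in the OE tumors, against 7.97 and 10.2 FPKM in OE normal and 9.95 and 10.3 FPKM in WT lungs. The tumors lay below all normal lungs for both genes, and Tekt4 had the lowest tumor level relative to OE normal lung among the motile cilium genes called. The log2 differences against OE normal and WT lung were -3.48 and -3.39 for Tekt1 (SE 0.22, adjusted p = 0.000298 and 0.000258 by limma) and -3.18 and -3.33 for Tekt4 (SE 0.17, adjusted p = 0.000274 and 0.000198).

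Tekt2 had 1.18, 0.316 and 0.374 FPKM in the OE tumors, against 7.05 and 7.72 FPKM in OE normal and 9.56 and 9.23 FPKM in WT lungs. Its groups did not overlap, and its log2 difference was -2.41 against OE normal lung (SE 0.24, adjusted p = 0.000902 by limma) and -2.72 against WT lung (SE 0.24, adjusted p = 0.00058). Tekt5, a tektin known mainly from sperm, was low throughout. It had 0.271, 0.506 and 0.363 FPKM in the OE tumors, against 1.63 and 0.815 FPKM in OE normal and 1.02 and 1.58 FPKM in WT lungs. All tumors were below all normal lungs, but the difference of -0.67 (SE 0.21) against OE normal lung missed the threshold at adjusted p = 0.0501 by limma, and that of -0.73 (SE 0.21) against WT lung passed at adjusted p = 0.0376. The call against WT lung was lost in 8 of the alternatives tried, those without tumor 2, tumor 3, WT 1 or WT 2 among them, with adjusted p between 0.064 and 0.30. Without OE normal 2 the difference against OE normal lung was called. Tekt3 stayed at or below 0.449 FPKM in all libraries.

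Radial spokes reach from the outer doublets to the central pair, and their genes did not move as a family. Rsph1, a spoke head gene, had 0.97, 0.336 and 0.716 FPKM in the OE tumors, against 20.5 and 29.3 FPKM in OE normal and 21.5 and 27.8 FPKM in WT lungs. Rsph9, another spoke head gene, kept more of its level, with 4.43, 5.52 and 4.90 FPKM in the OE tumors, against 15.3 and 20.2 FPKM in OE normal and 15.4 and 18.5 FPKM in WT lungs. All 3 tumors were below all normal lungs for both, but for Rsph9 tumor 2 was the highest tumor. Against OE normal and WT lung the differences were -3.95 and -3.94 for Rsph1 (SE 0.24, adjusted p = 0.000298 and 0.00024 by limma), and -1.65 and -1.59 for Rsph9 (SE 0.17, adjusted p = 0.00102 and 0.00116). Rsph4a, the third spoke head gene measured, was also called lower in both, with differences of -3.10 and -2.88.

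Rsph3a and Rsph3b, near-identical copies of a spoke stalk gene between which reads may be split, were the motile cilium genes that tumors kept. Rsph3a had 11.8, 14.5 and 13.6 FPKM in the OE tumors, against 12.9 and 13.6 FPKM in OE normal and 12.5 and 12.9 FPKM in WT lungs. Rsph3b had 11.9, 14.7 and 14.1 FPKM in the OE tumors, against 14.1 and 15.3 FPKM in OE normal and 13.9 and 14.6 FPKM in WT lungs. The groups overlapped for both copies. The log2 differences against OE normal lung were -0.0017 (SE 0.13, adjusted p = 0.993 by limma) for Rsph3a and -0.11 (SE 0.13, adjusted p = 0.516) for Rsph3b, and the sign of each depended on the scaling of the libraries. Rsph6a, known from sperm, was at 0 or below 0.017 FPKM in each library. With the Rsph3 pair, the motile cilium genes summed to 37.1 to 37.8 FPKM in the OE tumors, against 184 to 249 FPKM in OE normal and 188 to 226 FPKM in WT lungs. Without the pair the sums were 8.41 to 14.1 FPKM in the OE tumors, 157 to 220 FPKM (OE normal lung) and 161 to 198 FPKM (WT lung).

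**Figure D2:**
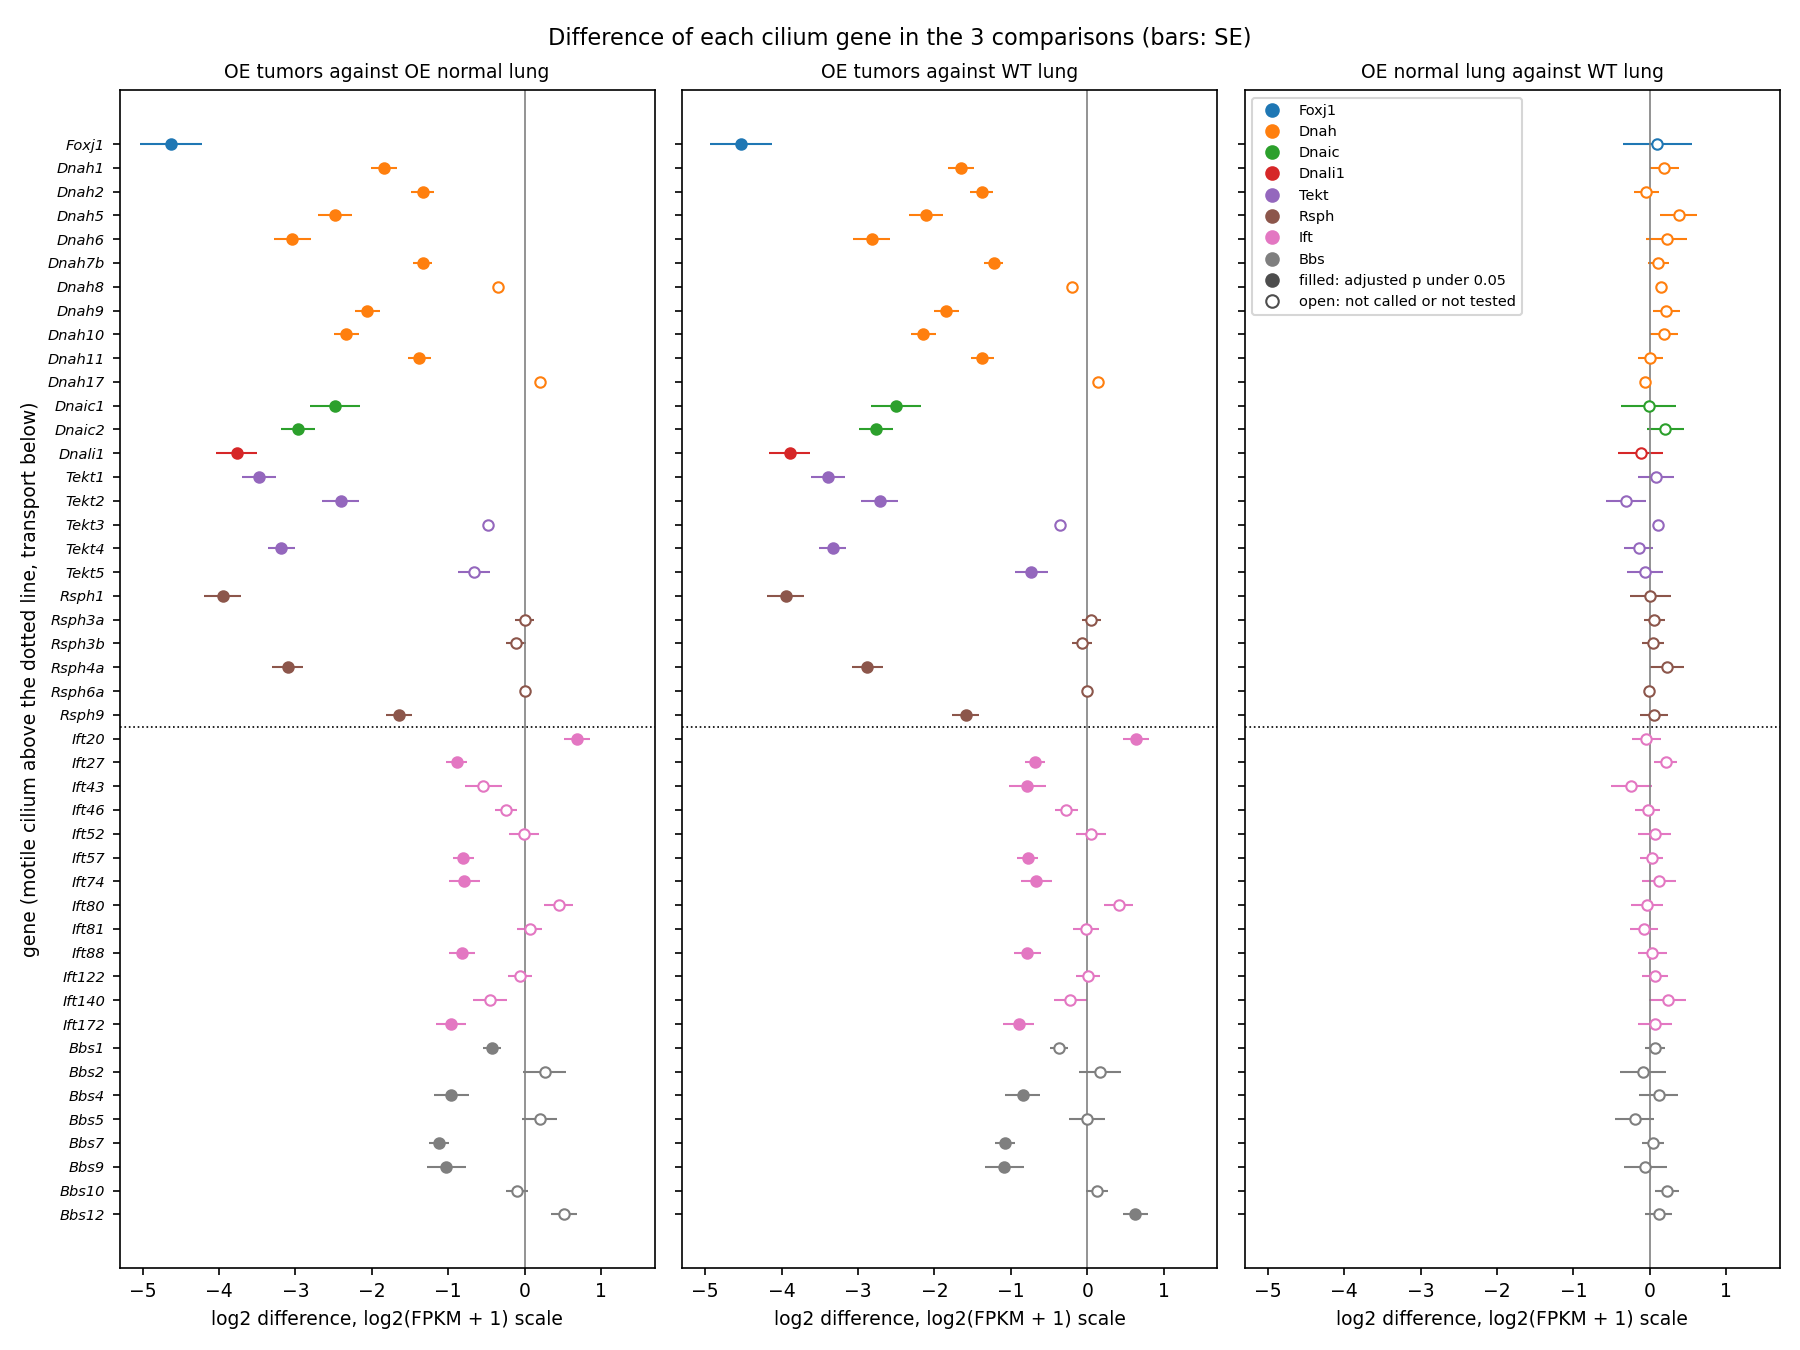
Log2 difference of each of the 46 genes on the log2(FPKM + 1) scale in the 3 comparisons, with bars for the SE from limma where the gene was tested, filled points at adjusted p under 0.05 and colors by gene family. Motile cilium points lie between -4.63 and 0.20 in OE tumors against OE normal lung and transport points between -1.12 and 0.68, and no point is filled for OE normal against WT lung.

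Among the transport genes, 10 Ift genes belong to IFT-B, the complex that carries cargo outward along the cilium. Of these 10, 5 were called lower and 1 higher in each tumor comparison. Against OE normal and WT lung, 24.9% and 23.2% of all genes tested were called lower, and 13.1% and 15% higher. IFT-B genes under other symbols are not counted here. Ift172 had 7.40, 5.29 and 4.72 FPKM in the OE tumors, against 11.0 and 13.3 FPKM in OE normal and 10.8 and 12.2 FPKM in WT lungs. Ift88, an IFT-B core gene, had 4.93, 4.09 and 3.81 FPKM in the OE tumors, against 7.28 and 9.37 FPKM in OE normal and 7.35 and 8.82 FPKM in WT lungs. The tumors lay below every normal lung in both genes, and none was near 0. The log2 differences against OE normal and WT lung were -0.96 and -0.90 for Ift172 (SE 0.20, adjusted p = 0.0119 and 0.0158 by limma) and -0.82 and -0.78 for Ift88 (SE 0.17, adjusted p = 0.0126 and 0.0149).

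Ift27, which encodes a Rab-like GTPase of the train, had 9.51, 8.17 and 7.94 FPKM in the OE tumors, against 16.3 and 16.998 FPKM in OE normal and 13.1 and 15.5 FPKM in WT lungs. Ift57 had 4.71, 4.91 and 3.86 FPKM in the OE tumors, against 8.40 and 8.75 FPKM in OE normal and 8.16 and 8.68 FPKM in WT lungs. Ift74, which pairs with Ift81 to bind tubulin, had 6.07, 4.28 and 3.90 FPKM in the OE tumors, against 7.79 and 9.98 FPKM in OE normal and 7.65 and 8.38 FPKM in WT lungs. No group overlap was seen in these 3 genes, and tumor 1 was the highest tumor for Ift27 and Ift74 but not for Ift57. Their log2 differences against OE normal and WT lung were -0.89 and -0.68 for Ift27 (SE 0.14, adjusted p = 0.00378 and 0.0103 by limma), -0.81 and -0.78 for Ift57 (SE 0.14, adjusted p = 0.00571 and 0.00659), and -0.79 and -0.67 for Ift74 (SE 0.20, adjusted p = 0.0248 and 0.0437).

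Ift20, an IFT-B gene whose protein also sits at the Golgi, was the transport gene called higher in both tumor comparisons. It had 86.0, 59.2 and 71.0 FPKM in the OE tumors, against 45.3 and 42.9 FPKM in OE normal and 43.2 and 48.0 FPKM in WT lungs. Every tumor lay above every normal lung, with tumor 1 the highest. The log2 difference was 0.68 (SE 0.17, adjusted p = 0.024 by limma) against OE normal lung and 0.63 (SE 0.17, adjusted p = 0.0309) against WT lung. The call against OE normal lung was lost without tumor 3 or without any 1 of the 4 normal lungs, at adjusted p between 0.0513 and 0.127 by limma, and that against WT lung likewise, at up to 0.176.

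The other 4 of the 10 IFT-B genes with an Ift symbol were not called in either comparison. Ift52 had 12.2, 18.4 and 18.4 FPKM in the OE tumors, against 16.2 and 16.2 FPKM in OE normal and 14.5 and 16.5 FPKM in WT lungs. Its tumor values straddled those of the normal lungs, and the differences were -0.012 and 0.05 (SE 0.20, adjusted p = 0.969 and 0.857 by limma). Ift80 lay above all normal lungs in all 3 tumors, at 7.07 to 10.4 FPKM in OE tumors, against 5.23 to 6.30 FPKM in OE normal and 5.84 to 5.98 FPKM in WT lungs, but was not called (adjusted p = 0.11 and 0.132). Ift46 and Ift81 had differences of -0.24 and 0.07 against OE normal lung.

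IFT-A, the complex of the return journey, is represented among the 46 genes by Ift43, Ift122 and Ift140. Ift43 had 23.2, 40.3 and 38.7 FPKM in the OE tumors, against 45.9 and 51.6 FPKM in OE normal and 56.3 and 59.2 FPKM in WT lungs. All tumors lay below all normal lungs, and tumor 1 was the lowest library. The difference was called against WT lung (-0.78, SE 0.25, adjusted p = 0.0483 by limma) and not against OE normal lung (-0.54, SE 0.25, adjusted p = 0.131). The call against WT lung was lost without any 1 library other than tumor 1. Ift122 and Ift140 were not called, with differences of -0.061 and -0.45 against OE normal lung. Of the IFT-A genes under other symbols, Wdr19 and Wdr35 were not called. Ttc21b was called lower against OE normal lung (-0.71, SE 0.22, adjusted p = 0.04998 by limma) and not against WT lung (-0.59, adjusted p = 0.0825).

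The BBSome subunits with a Bbs symbol were Bbs1, Bbs2, Bbs4, Bbs5, Bbs7 and Bbs9. Of these, 4 were called lower against OE normal lung and 3 against WT lung, where 24.9% and 23.2% of all genes tested were. Bbs7 had 1.83, 2.07 and 1.73 FPKM in the OE tumors, against 5.29 and 5.22 FPKM in OE normal and 4.74 and 5.42 FPKM in WT lungs. Bbs9 had 4.73, 2.57 and 2.24 FPKM in the OE tumors, against 7.37 and 7.13 FPKM in OE normal and 7.40 and 7.79 FPKM in WT lungs. The groups did not overlap, and Bbs7 was even across the 3 tumors while Bbs9 was highest in tumor 1. The log2 differences against OE normal and WT lung were -1.12 and -1.08 for Bbs7 (SE 0.13, adjusted p = 0.00151 and 0.00172 by limma), and -1.03 and -1.09 for Bbs9 (SE 0.26, adjusted p = 0.0225 and 0.0189).

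Bbs4 had 3.81, 2.10 and 2.01 FPKM in the OE tumors, against 6.01 and 5.85 FPKM in OE normal and 5.11 and 5.68 FPKM in WT lungs. Bbs1 had 2.50, 2.72 and 2.47 FPKM in the OE tumors, against 3.77 and 3.84 FPKM in OE normal and 3.53 and 3.63 FPKM in WT lungs. Both lay below the normal lungs in every tumor. Bbs4 was called in both comparisons (-0.96 and -0.85, SE 0.23, adjusted p = 0.0197 and 0.0308 by limma), and Bbs1 against OE normal lung (-0.43, SE 0.12, adjusted p = 0.032) but not against WT lung (-0.37, SE 0.12, adjusted p = 0.0545). Quantile normalization turned the Bbs1 difference against OE normal lung to 0.073.

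Bbs2 and Bbs5 went apart between the tumors. Bbs2 had 4.82, 9.96 and 8.41 FPKM in the OE tumors, against 5.82 and 6.28 FPKM in OE normal and 6.04 and 6.99 FPKM in WT lungs. Tumor 1 lay below all normal lungs and tumors 2 and 3 above them, and Bbs5 was likewise lower in tumor 1 (3.36 FPKM) than in tumors 2 and 3 (5.74 and 5.65 FPKM). Neither was called, with Bbs2 at 0.26 (SE 0.28, adjusted p = 0.489 by limma) and Bbs5 at 0.19 (SE 0.23, adjusted p = 0.54) against OE normal lung. Without tumor 1 both were called higher against OE normal lung, at adjusted p = 0.0108 for Bbs2 and 0.0361 for Bbs5 by limma. That fit called 3755 of all 14057 genes tested higher, against 1844 with all 7 libraries. Its median SE was 0.12, against 0.19 with all libraries.

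Bbs10 and Bbs12 encode chaperonin-like proteins that help the BBSome assemble. Bbs12 had 3.45, 4.35 and 3.40 FPKM in the OE tumors, against 1.99 and 2.64 FPKM in OE normal and 1.89 and 2.22 FPKM in WT lungs. Every tumor lay above every normal lung, and the difference was called against WT lung (0.63, SE 0.17, adjusted p = 0.0275 by limma) and not against OE normal lung (0.51, SE 0.17, adjusted p = 0.0516). Without any 1 of tumor 2, tumor 3, WT 1 or WT 2 the call against WT lung was lost. Bbs10 was not called, with differences of -0.097 and 0.13.

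The transport calls depended on single libraries far more than the motile cilium calls. Leaving out 1 library gave 18 or 19 motile cilium genes called lower in each tumor comparison. The 9 transport genes called lower against OE normal lung were 5 without tumor 2, tumor 3 or OE normal 1 and 3 without OE normal 2. Over all genes tested, the 3506 called lower there were 2653, 2641, 2341 and 2266 under these 4 omissions. The 9 transport genes called lower against WT lung were 3 without tumor 2, 4 without tumor 3, 3 without WT 1 and 1 without WT 2. Over all genes tested, the 3256 called lower against WT lung were 2406, 2439, 1939 and 1847 in turn. Calls were thus lost across all genes too. Against OE normal lung, Ift172 and Ift88 lost the call without OE normal 2, Bbs4 and Bbs9 without tumor 2, tumor 3 or either OE normal lung, and Ift74 and Bbs1 without any 1 library other than tumor 1. Against WT lung, Ift172 lost the call without tumor 2, WT 1 or WT 2, and Ift88 and Bbs9 without tumor 2, tumor 3, WT 1 or WT 2. Ift74 and Bbs4 lost it there without any 1 library other than tumor 1. Bbs7 was called lower in both tumor comparisons under every setting tried. Ift27 and Ift57 were called lower against OE normal lung under every setting tried, and lost the call against WT lung with a replicate block (adjusted p = 0.0821 and 0.0551 by limma) and without WT 2 (0.101 and 0.0695).

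The 3 tumors differed in how little motile cilium RNA they held. The median over the motile cilium genes of the tumor level relative to the OE normal mean was 6.66% in tumor 1, 1.19% in tumor 2 and 2.33% in tumor 3. Rsph6a, with an OE normal mean of 0, is left out of this median. For the 21 transport genes the same median was 75.3%, 80.8% and 76.1%. At 1 FPKM or more there were 5, 3 and 3 motile cilium genes in the tumors, 21 and 20 in the OE normal lungs and 21 and 21 in the WT lungs. All 21 transport genes reached 1 FPKM in every library except WT 1, where 20 did. Tumor 1 was the highest tumor for 18 of 25 motile cilium genes and 11 of 21 transport genes. It was the highest for 55.3% of all genes tested and 43.5% of all genes listed.

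**Figure D3:**
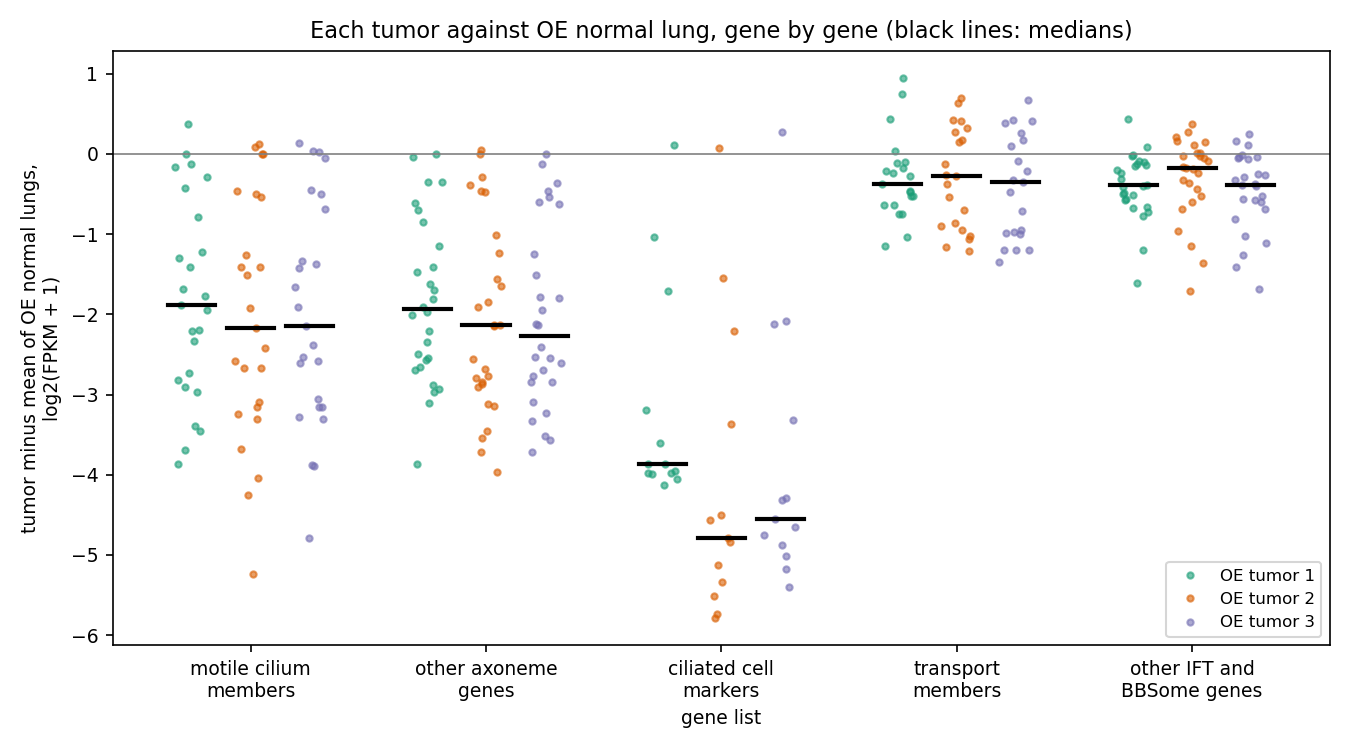
Each OE tumor minus the mean of the 2 OE normal lungs on the log2(FPKM + 1) scale, 1 point per gene and tumor, for the motile cilium genes, other axoneme genes, ciliated cell markers, transport genes and other IFT and BBSome genes, with black lines at the medians. The medians of the first 3 lists lie well below 0 in every tumor and least so in tumor 1, and those of both transport lists lie just below 0.

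Markers of ciliated cells moved with the motile cilium genes. Of 13 listed ciliated cell markers, 12 were called lower in each tumor comparison, where 24.9% and 23.2% of all genes tested were. At 1 FPKM or more were 11, 6 and 7 of them in the 3 OE tumors and 13 in each normal lung. These counts are also a description. The sum of the 13 was 257 to 355 FPKM in the OE tumors, against 1408 to 1455 FPKM in OE normal and 1580 to 1808 FPKM in WT lungs. Most of the tumor sum came from the tubulin genes Tubb4b and Tuba1a, which other cells also express. Without them the sum was 27.5 to 59.5 FPKM in the OE tumors, against 1021 to 1043 FPKM in OE normal and 1150 to 1325 FPKM in WT lungs. Sec14l3 had 26.0, 14.6 and 14.3 FPKM in the OE tumors, against 479 and 415 FPKM in OE normal and 489 and 569 FPKM in WT lungs (log2 difference -4.59 against OE normal lung, SE 0.27, adjusted p = 0.000291 by limma). Fam183b was listed at 0 in tumor 2, and no other ciliated cell marker was at 0 in any library. Tubb4b was not called (0.15, adjusted p = 0.378). The part of ciliated cell number in the motile cilium result was not tested.

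Markers of other lung cell types moved too. Against OE normal lung, 8 of 8 endothelial, 7 of 9 club cell and 5 of 8 alveolar type 1 markers were called lower, and 6 of 9 alveolar type 2 markers higher, where 24.9% of all genes tested were called lower and 13.1% higher. Calls the other way were 1 club cell marker (Scgb1a1) and 1 alveolar type 1 marker (Aqp5, named after its value was seen, 0.93, adjusted p = 0.022 by limma) called higher, and 0 alveolar type 2 markers called lower. Of the mesenchymal markers, 2 of 8 were called lower and 0 higher, a share near that of all genes, and the median over the 8 genes of the level relative to the gene's OE normal mean was 154% in tumor 1, 30.8% in tumor 2 and 48.8% in tumor 3. The airway secretory gene Cyp2f2 had 33.7, 12.3 and 21.5 FPKM in the OE tumors, against 1619 and 1093 FPKM in OE normal and 1368 and 1550 FPKM in WT lungs. Scgb1a1, the main club cell product, had 2227, 56.3 and 1095 FPKM in the OE tumors and was listed at 0 in all 4 normal lungs, so no fold is given for it. These 0 values can be failed estimates, as for Sftpc, so the higher call of Scgb1a1 is not read as a gain in the tumors. The part of these cell types in the cilium gene results was not tested.

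The other axoneme genes are a list of 28 further dynein, spoke, ruler and central pair genes, of which 26 were tested. In OE tumors 22 were called lower and 0 higher against OE normal lung, and 23 and 0 against WT lung. Most passed the filter through the normal lungs, as 9, 6 and 7 reached 1 FPKM in the 3 OE tumors and 26 in each normal lung. These counts are therefore a description. Of all genes tested, 24.9% were called lower and 13.1% higher against OE normal lung, and 23.2% and 15% against WT lung. Dynlrb2, a dynein light chain gene, had 3.51, 4.99 and 5.52 FPKM in the OE tumors, against 57.0 and 73.8 FPKM in OE normal and 60.0 and 72.2 FPKM in WT lungs. Its tumor and normal ranges were far apart, and the difference against OE normal lung was -3.56 (SE 0.21, adjusted p = 0.000291 by limma). Nme5, a spoke-associated gene, was also lower (-2.73, SE 0.46, adjusted p = 0.00549), and Dnal4, an axonemal dynein light chain gene, was not called (-0.30, SE 0.17, adjusted p = 0.209). Of the 12 dynein arm assembly factors, which preassemble the arms in the cytoplasm, 11 were tested. Against OE normal lung 7 were called lower and 1 higher. The 3 OE tumors held 7, 6 and 5 of the 12 at 1 FPKM or more, and each normal lung held 11. Zmynd10 (-3.18, SE 0.26, adjusted p = 0.0005) and Dnaaf3 (-2.30, SE 0.17, adjusted p = 0.000393) fell, and Pih1d1, which also serves a general chaperone complex, was called higher (0.37, SE 0.11, adjusted p = 0.0378), a call lost without any 1 library other than tumor 1. The median log2 difference was -2.07 for the other axoneme genes and -0.97 for the assembly factors.

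Of 13 regulators of multiciliated cells besides Foxj1, 9 were tested, and 4 (Mcidas, Gmnc, Rfx4 and Foxn4) were too low. In each tumor comparison 5 were called lower and 0 higher. At 1 FPKM or more were 5, 5 and 4 regulators in the 3 OE tumors and 8 or 9 in each normal lung, so these counts are a description. Against OE normal and WT lung, 24.9% and 23.2% of all genes tested were called lower, and 13.1% and 15% higher. The 5 called were Myb, Trp73, Rfx2, Ccno and Ccdc67. Rfx2, an X-box factor, had 2.36, 1.15 and 0.844 FPKM in the OE tumors, against 6.05 and 6.38 FPKM in OE normal and 6.21 and 6.73 FPKM in WT lungs. All tumors were below all normal lungs, with a difference of -1.61 (SE 0.26, adjusted p = 0.00492 by limma) against OE normal lung. E2f4 and E2f5, cell cycle factors that also act in multiciliated cells, were not called (0.34 with adjusted p = 0.184, and 0.24 with adjusted p = 0.201). Myb and Trp73, named after their values were seen, had differences of -2.60 and -2.06.

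Further transport genes had smaller differences than the other axoneme genes. Of 26 other IFT and BBSome genes, 25 were tested, and 6 were called lower and 0 higher against OE normal lung, a share near the 24.9% of all genes tested, with a median of -0.30. Against WT lung 3 were called lower and 0 higher, where 23.2% of all genes tested were called lower. The 6 against OE normal lung were 3 without tumor 2 or OE normal 1, 2 without tumor 3 and 1 without OE normal 2. Calls over all genes tested also fell under these omissions, as given above. Traf3ip1, an IFT-B gene, had 5.34, 6.57 and 6.34 FPKM in the OE tumors, against 16.1 and 21.1 FPKM in OE normal and 16.4 and 18.0 FPKM in WT lungs. Its difference against OE normal lung was the lowest of the list (-1.46, SE 0.16, adjusted p = 0.00125 by limma), while Dync2li1 and Cluap1 were not called (-0.37 and -0.25, adjusted p = 0.137 and 0.257). Of 26 basal body and transition zone genes, which anchor and gate the cilium, 12 were called lower and 0 higher against OE normal lung. Their median was -0.57, and 6 were lower without OE normal 2. Against WT lung 11 were called lower and 0 higher, with a median of -0.49 (2 to 17 lower leaving out 1 library). Of all genes tested, 24.9% and 23.2% were called lower, and 13.1% and 15% higher. Among those with the highest levels, B9d1 was called lower against OE normal lung (-0.53, SE 0.15, adjusted p = 0.0354 by limma, lost without any 1 library other than tumor 1). Odf2 and Inpp5e were not called there (-0.29 and 0.38, adjusted p = 0.302 and 0.114).

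**Figure D4:**
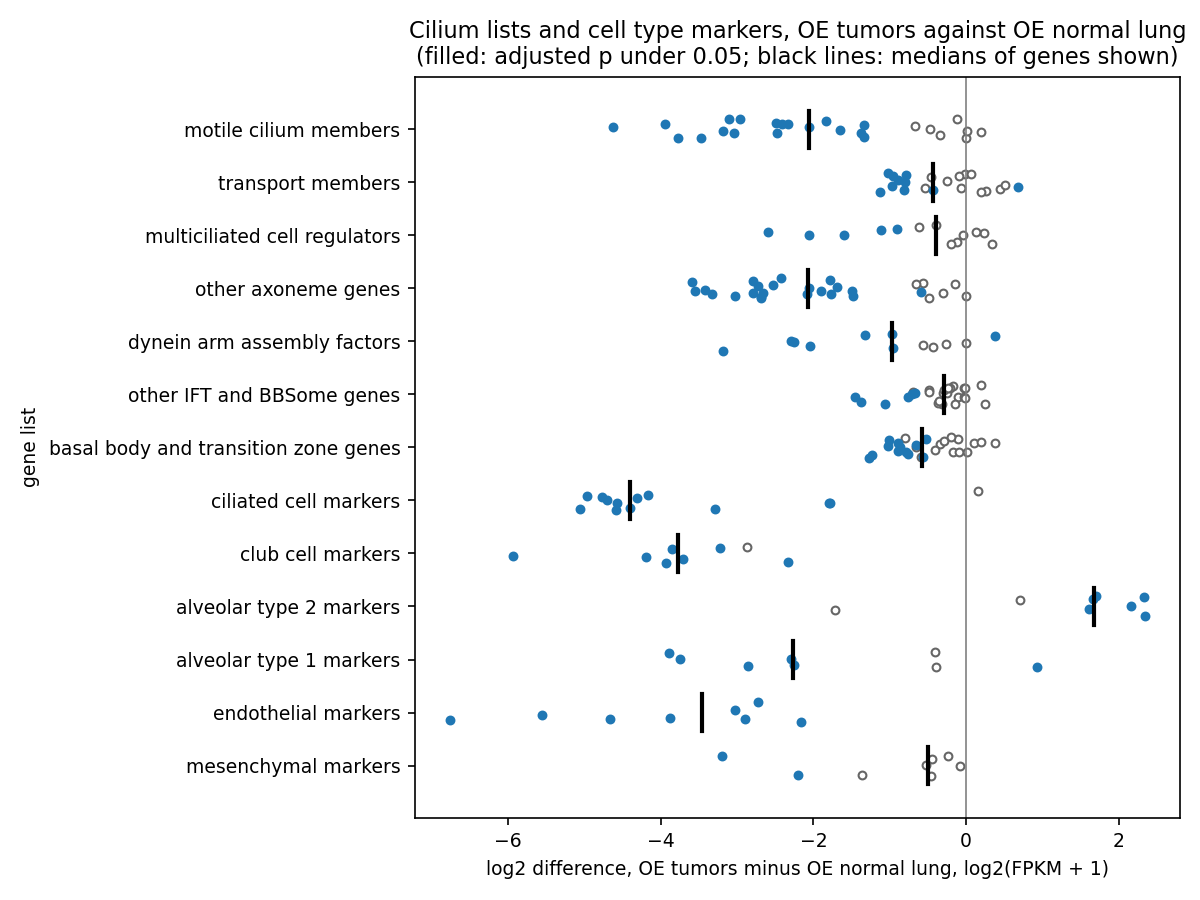
Log2 difference of OE tumors minus OE normal lung on the log2(FPKM + 1) scale for each gene of the cilium lists and cell type marker lists, filled at adjusted p under 0.05, with black lines at the medians; Scgb1a1 and Sftpc, listed at 0 in whole libraries, are left out. Motile cilium genes, other axoneme genes and ciliated cell markers lie furthest to the left among the cilium lists. Both transport lists lie further right, with medians of -0.43 (transport genes) and -0.30 (other IFT and BBSome genes).

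No cilium gene was called between OE normal lung and WT lung. Of the 21 motile cilium and 21 transport genes tested, 0 had an unadjusted p under 0.05 by limma. Of all 14057 genes tested 0% were called in either direction, with 1208 at an unadjusted p under 0.05. Without tumor 1, which enters only through the shared spread, 290 genes were called, with 0 motile cilium genes lower and 0 transport genes in either direction. The motile cilium differences ranged from -0.31 (Tekt2) to 0.38 (Dnah5) with a median of 0.057, and the transport differences from -0.24 (Ift43) to 0.23 (Ift140) with a median of 0.043. The OE normal lungs lay below both WT lungs for 2 motile cilium and 3 transport genes (23.1% of all genes tested), and above both for 4 and 6 (29.6%). Of all 22447 genes listed, 3828 lay below and 5365 above. Foxj1 averaged 40.6 ± 10.1 FPKM in OE normal lungs and 37.5 ± 6.76 FPKM in the WT lungs (SD, n = 2 each), a difference within the spread of either pair. The median SE over all genes was 0.21 in this comparison, so small differences could not be detected with 2 libraries a group.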

How the data were processed

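The deposited tables hold 1 FPKM value per gene and library, which the authors made from reads with Cufflinks 2.0.0 after TopHat2 or TopHat, with mm9 named as the genome per the submitters' processing notes. Strand setting, annotation and read totals were not given in the sources used. In each file 27 of 22474 rows held dates, not symbols, and were left out. Values were transformed from the deposited FPKM to log2(FPKM + 1), and genes reaching 1 FPKM in 2 or more of 7 libraries entered a linear model in limma 3.58.1 (R 4.3.3; 3 groups sharing 1 spread, eBayes with a trend, 2-sided, Benjamini-Hochberg adjusted p under 0.05, 4 residual degrees of freedom). The median SE was 0.19 in the tumor comparisons. The fit was also tried on simulated data with the same spread in every library. That setting holds no library that stands apart as tumor 1 does, so it cannot show how the fit handles such a library. Files held no counts, so no counting intervals are given.

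The genes and lists were chosen with earlier results of these data known. Named genes were Foxj1, Dnali1, both Dnaic genes, the 4 highest of each other family, called transport genes, and the 3 highest tested genes of each other list; remaining members were named to account for all 46. Lists for basal and neuroendocrine cells were also made. Of 6 basal and 7 neuroendocrine genes, 1 and 4 were tested and the rest were too low. Of those tested, 1 and 3 were called lower in OE tumors against OE normal lung, and 0 and 4 against WT lung. Of all genes tested, 24.9% and 23.2% were called lower in these comparisons. Alternatives were a pseudocount of 0.1 FPKM, no filter, a 5 FPKM filter, 3 other scalings, no trend, a fit of 2 groups alone, a replicate block and the omission of each library in turn. Sex as a covariate and the marker sum without tubulins were added after seeing the data. Labels share replicate numbers, but same-numbered libraries did not deviate together (r -0.03 to 0.03), so samples were not paired. Promoters are RefSeq sequences of GRCm38.p6. Plots were made in Python 3.11.15 using matplotlib 3.10.9.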

Additional observations from a re-analysis of the deposited data

How the results depend on the processing

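Every call of a named motile cilium gene other than Tekt5 held under each alternative that tested the gene, and these libraries cannot resolve small differences. A 5 FPKM filter tested fewer genes and left 11 motile cilium genes called lower in each tumor comparison. Their median against OE normal lung was -4.24 with a pseudocount of 0.1, -3.03 as TPM and -1.72 after quantile normalization. Against WT lung it was -3.99 with that pseudocount and -2.66 as TPM. The median over all genes tested, -0.11 against OE normal lung, became 0.048 by median of ratios, -0.33 as TPM and 0.11 after quantile normalization. The split of all calls against OE normal lung, 1844 higher and 3506 lower, became 2541 and 3150, 1085 and 4883, and 3274 and 2821 under these scalings.

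For transport genes lower against OE normal lung the replicate block left 3, and leaving out 1 library gave 3 to 11. Over all genes tested, the 3506 lower became 2316 with the block and 2266 to 5865 leaving out 1 library. Transport genes higher numbered 3 by median of ratios, 0 as TPM, 4 after quantile normalization, 2 without a trend, 0 with only 2 groups and 0 with the block (0 to 4 leaving out 1 library). Over all genes tested, the 1844 higher became 1836 without a trend, 1215 with only 2 groups and 814 with the block. The transport median was -0.54 with the smaller pseudocount, -0.29, -0.70 and -0.043 under the 3 scalings, and -0.32 with the block (-0.44 to -0.31 leaving out 1 library). For transport genes lower against WT lung the block left 1 and sex as a covariate 5 (1 to 10 leaving out 1 library). Over all genes tested, the 3256 lower became 2094 with the block and 2644 with sex (1847 to 5447 leaving out 1 library). Transport genes higher there numbered 0 with no filter, 1 at 5 FPKM, 4 after quantile normalization, 1 with only 2 groups, 0 with the block and 1 with sex (0 to 4 leaving out 1 library). Over all genes tested, the 2115 higher became 1817, 1826, 3102, 1623, 905 and 1602 in turn. The transport median against WT lung was -0.17, -0.38 and -0.0092 under the 3 scalings (-0.35 to -0.19 leaving out 1 library). In OE normal against WT lung the transport median was 0.17 as TPM and -0.050 after quantile normalization (-0.016 to 0.084 leaving out 1 library).

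Some differences near 0 changed sign. Against OE normal lung, median of ratios gave 0.16 for Ift52, 0.17 for Rsph3a and 0.057 for Rsph3b. Quantile normalization gave 0.073 for Bbs1, 0.072 for Ift52 and 0.12 for Rsph3a, and leaving out 1 library gave -0.10 to 0.17 for Ift52 and -0.063 to 0.079 for Rsph3a. Against WT lung, Bbs5 was 0.10 by median of ratios, 0.22 after quantile normalization and -0.11 to 0.20 leaving out 1 library. Rsph3b was 0.040, 0.016 and -0.13 to 0.014 under the same. As TPM, Ift52 and Rsph3a were -0.042 and -0.036, and with the block Ift52 was -0.042. With sex as a covariate Bbs2, Ift52 and Rsph3a were -0.16, -0.16 and -0.057, and leaving out 1 library gave -0.019 to 0.44, -0.042 to 0.24 and -0.0062 to 0.14. The cause of these shifts was not tested. The block lowered the count of all genes called against OE normal lung to 3130, against 5350 without it.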
